A study of Mus musculus with 18 samples.

Results

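The E2F and RB families were followed through mouse erythropoiesis by their nascent RNA. The members are 10 genes taken by name, E2f1, E2f2, E2f3, E2f4, E2f5, E2f7, E2f8, Rb1, Rbl1 and Rbl2, out of 54232 gene identifiers in the deposited table, of which 30157 had any count. E2F proteins bind the promoters of genes for DNA replication and cell division, and the retinoblastoma (pocket) proteins bind E2Fs and hold those genes silent until cyclin-dependent kinases phosphorylate the pocket. E2f1, E2f2 and E2f3 encode the activating E2Fs, E2f4 and E2f5 the E2Fs that mostly repress together with pocket proteins, and E2f7 and E2f8 the atypical E2Fs, which repress without a pocket protein or a dimerization partner. In the red cell lineage the last divisions are coupled to haemoglobin accumulation and cell cycle exit, and mice that lack Rb1 or E2f4 are known for defects in making red cells in the fetal liver.

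Fetal livers of C57BL/6 embryos at e12.5 to e13.5 were sorted by flow cytometry on the transferrin receptor (CD71) and on Ter119, which appears on the surface of erythroid cells as they mature. Cells without markers of other blood lineages were split into S0-Low (Ter119 negative, with CD71 called low in the sample names and negative in the marker labels, holding stem and progenitor cells and burst-forming units), S0-Medium and S1 (Ter119 negative with medium and high CD71, early and late colony-forming units), and S2 and S3 (CD71 high with medium and high Ter119, terminally differentiating cells), while Lin+ denotes the cells with lineage markers. All sorted cells rested for 6 h and were then given 500 µM 4-thiouridine (4sU) for 45 min, so that RNA made in that time could be purified and sequenced (4sU-seq). There were 3 libraries for each of the 6 populations, 18 in all, and the labels, which give no genotype beyond the strain, do not say whether replicates came from separate litters, so p-values measure the spread between these libraries.

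Total counts ranged from 9452476 to 40567976 per library, with S0-Low replicate 3 the shallowest. The labels were checked against marker genes. The summed CPM (read counts per library total, rescaled by TMM, edgeR's correction for library composition) of 7 erythroid genes ran from 496 to 1050 in S0-Low and from 22700 to 38700 in S3, and that of 3 stem and progenitor genes ran from 694 to 1000 in S0-Low and from 0 to 9.87 in S3. The sum of 8 neutrophil and monocyte genes was 385 to 794 in S0-Low, 0 to 1.49 in S3 and 3500 to 6020 in Lin+, and the part of this in the differences given here was not tested. Lin+ cells are also labelled as erythroblasts, but their erythroid sum was the lowest of the 6 populations, at 270 to 350. Their stem and progenitor sum was 600 to 930. Their sums of macrophage, megakaryocyte and lymphoid genes, at 145 to 229, 253 to 698 and 11.8 to 45.6, were the highest of the 6 populations. In each of the 5 erythroid populations the replicate 3 library had the highest coordinate on the first principal component, the axis along which S0-Low and S3 lay at opposite ends. In bulk populations, a change in the share of expressing cells and a change of RNA per cell cannot be told apart.

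Between S0-Low and S3, 6 of the 10 members rose and 1 fell. E2f2, E2f7, E2f8, Rb1, E2f4 and Rbl1 rose, E2f3 fell, and E2f1, E2f5 and Rbl2 did not pass the test. The threshold was an adjusted p of 0.05 (edgeR quasi-likelihood test over the 15 erythroid libraries, Benjamini-Hochberg over 16555 genes). Of all genes tested, 13.4% were called higher and 22.4% lower in S3. These were 2220 genes higher and 3712 lower, which became 1156 and 6228 when libraries were scaled by their totals alone. The members' median log2 fold change was 1.97 and that of all genes was -0.54. The median of all genes moved to -1.36 when libraries were scaled by their totals alone and to -0.68 with RLE size factors. With library totals the number of members called higher was 5, and the number called lower was 2. The libraries of S3 lay entirely above those of S0-Low for 7 members and entirely below for 1, where 16.6% and 25.9% of all genes did so.

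**Figure D1:**
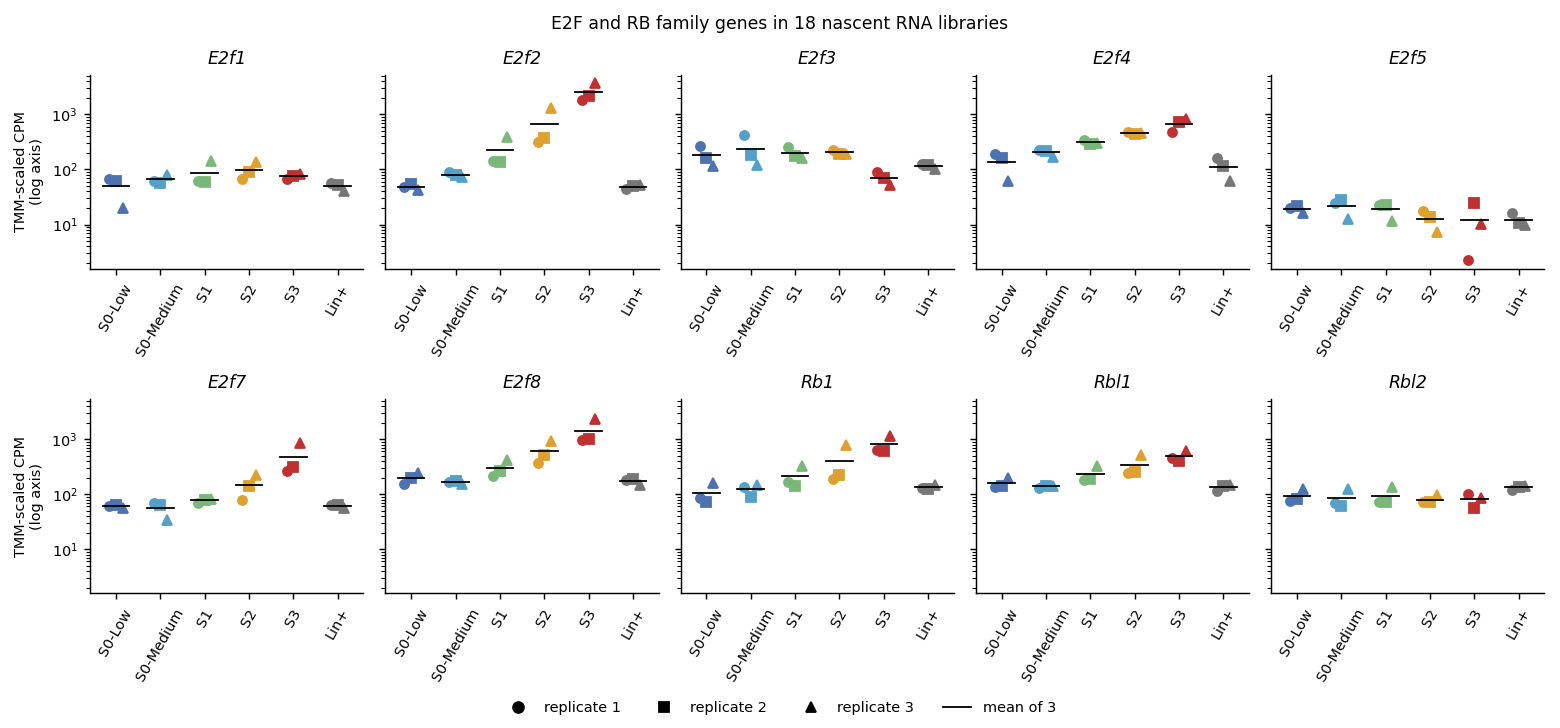
Nascent RNA of the 10 members in 18 libraries, as TMM-scaled CPM on a log axis, with 1 point per library (circle, square and triangle for replicates 1, 2 and 3) and a bar at the mean of 3. E2f2 climbs from 42.0 to 53.7 in S0-Low to 1796 to 3671 in S3, whereas Rbl2 spans 56.3 to 142 CPM over all 18 libraries.

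Among the activating E2Fs, E2f2 (ENSMUSG00000018983, chr4:136172274-136196057) carried the largest change of the 10 members (positions of genes are those of GRCm38.p6). Its nascent RNA stood at 47.7, 53.7 and 42.0 CPM in S0-Low replicates 1, 2 and 3 and at 91.1, 78.6 and 73.0 CPM in S0-Medium. It reached 143, 137 and 391 CPM in S1, then 313, 379 and 1327 CPM in S2, and finally 1796, 2175 and 3671 CPM in S3. Every S3 library was above every library of the earlier populations, and within S1, S2 and S3 the replicate 3 library was the highest. The mean in S3 was 53.3-fold that in S0-Low, a log2 fold change of 5.73 (SE 0.63, edgeR adjusted p = 1.45e-05). This change ranked at the 98.0th percentile of all tested genes. It stayed between 4.85 and 5.92 under all 15 other settings tried, each with an adjusted p under the threshold.

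E2f1 (ENSMUSG00000027490, chr2:154559400-154569892), the founding member of the family and a driver of S phase entry, did not pass the test. It measured 66.4, 61.5 and 19.8 CPM in S0-Low and 66.8, 74.9 and 84.5 CPM in S3. The S3 libraries lay above those of S0-Low, but replicate 1 of each differed by under 1 CPM, and the lowest value was that of S0-Low replicate 3, the shallowest library. Its log2 fold change was 0.61 (SE 0.45, edgeR adjusted p = 0.299), 0.19 without that library and -0.21 when libraries were scaled by their totals. The mean was highest in S2, at 98.7 ± 37.0 CPM (SD, n = 3).

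E2f3 (ENSMUSG00000016477, chr13:29906575-29986064), the other activating E2F, fell. It measured 271, 161 and 115 CPM in S0-Low, and 89.4, 71.4 and 51.6 CPM in S3. Its means in S0-Medium, S1 and S2 were 239.8 ± 157, 199.9 ± 52.7 and 205.1 ± 21.9 CPM (SD, n = 3), so the S3 libraries were the lowest of all, and no library of S3 overlapped one of an earlier population. The log2 fold change from S0-Low to S3 was -1.37 (SE 0.43, edgeR adjusted p = 0.0236). The call was lost without S0-Low replicate 1, S3 replicate 2 or S3 replicate 3, with edgeR adjusted p of 0.0973, 0.0556 and 0.0801. With library totals the change was -2.14.

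The makeup of the activating E2Fs within a library does not depend on scaling between libraries. Counts were divided by the length of the longest annotated transcript, and the share of each gene in the sum was taken. E2f3 supplied 57.9% ± 6.55 (SD, n = 3) of the activating E2F signal per kb in S0-Low, E2f1 25.6% ± 7.59, and E2f2 16.5% ± 5.48. In S3 the shares were 2.96% ± 1.58 for E2f3, 4.97% ± 1.07 for E2f1 and 92.1% ± 2.61 for E2f2. E2f2 had the smallest mean share of the 3 in S0-Low, although in S0-Low replicate 3 it stood above E2f1 (21.9% against 17.7%), and made up nearly the whole in every S3 library. S1 and S2 lay in between, with E2f2 at 36.6% ± 11.0 and 58.3% ± 14.9. In Lin+ E2f2 held 19.6% ± 3.49, a mean within the range of its shares in S0-Low.

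**Figure D2:**
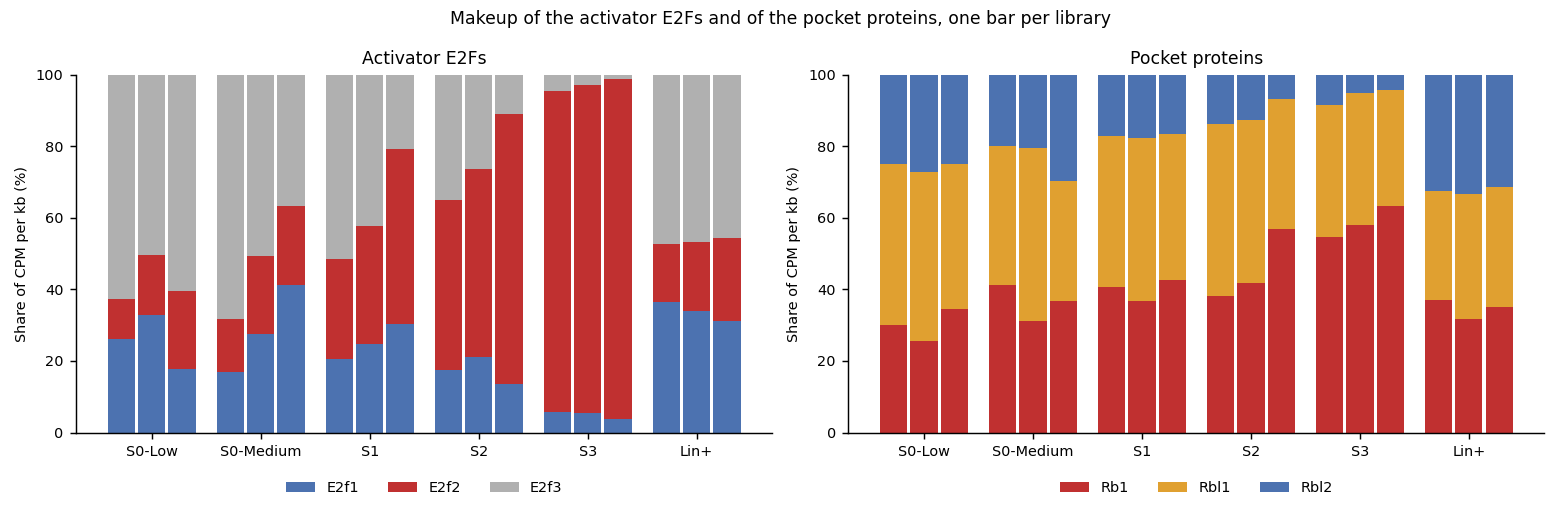
Share of CPM per kb, in percent, of E2f1, E2f2 and E2f3 among the activating E2Fs (left) and of Rb1, Rbl1 and Rbl2 among the pocket proteins (right), with 1 bar per library and replicates 1 to 3 side by side. E2f2 makes up 89.8% to 94.9% of the activating E2F signal in S3, and Rbl2 shrinks from at least 25.0% of the pocket signal in S0-Low to at most 8.38% in S3.

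Of the repressor E2Fs, E2f4 (ENSMUSG00000014859, chr8:105297663-105305370) had the higher level per kb in every population. It measured 190, 161 and 60.5 CPM in S0-Low and 476, 720 and 833 CPM in S3. In S0-Medium, S1 and S2 its means were 203.7 ± 32.0, 312.5 ± 27.3 and 460.6 ± 11.8 CPM (SD, n = 3). S0-Low replicate 3 was the lowest E2f4 value among the erythroid libraries, and the S3 libraries lay above those of S0-Low without overlap. E2f4 rose by 2.30 on the log2 scale (SE 0.37, edgeR adjusted p = 0.000279), and across all 15 other settings the change was 1.47 to 2.55.

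E2f5 (ENSMUSG00000027552, chr3:14578602-14606309), the closest relative of E2f4, ranked between 8 and 10 of the 10 members per kb in every population. It measured 19.9, 21.7 and 16.5 CPM in S0-Low and 2.27, 24.2 and 10.4 CPM in S3. The S3 libraries spread widely, with replicate 1 lowest and replicate 2 highest, and overlapped those of S0-Low. The log2 fold change was -0.66 (SE 0.69, edgeR adjusted p = 0.475), -0.18 without S3 replicate 1 and -1.61 without S3 replicate 2, and with library totals it was -1.51 (edgeR adjusted p = 0.0907). E2f4 made up 84.1% ± 6.90 of the summed E2f4 and E2f5 signal per kb in S0-Low and 98.1% ± 1.62 in S3 (SD, n = 3).

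The atypical E2Fs, which damp E2F target genes late in the cell cycle, rose together. E2f8 (ENSMUSG00000046179, chr7:48866429-48882073) measured 150, 201 and 243 CPM in S0-Low, and 948, 1024 and 2281 CPM in S3. E2f7 (ENSMUSG00000020185, chr10:110745439-110787384) measured 61.6, 62.5 and 56.2 CPM in S0-Low, and 264, 307 and 864 CPM in S3. For each gene the S3 libraries lay well above every S0-Low library, and S3 replicate 3 was more than 2-fold above the other two. E2f8 rose by 2.84 on the log2 scale (SE 0.43, edgeR adjusted p = 0.00019). E2f7 rose by 2.99 (SE 0.48, edgeR adjusted p = 0.000281), and by 2.23 without S3 replicate 3. With library totals the changes were 1.92 for E2f8 and 2.08 for E2f7, both still past the threshold. Their proportions hardly shifted, with E2f8 at 82.5% ± 4.07 of the atypical signal per kb in S0-Low, 86.0% ± 1.53 in S2 and 82.3% ± 2.38 in S3 (SD, n = 3).

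On the way from S0-Low to S3 the E2f8 mean was 164.1 ± 9.93 CPM in S0-Medium, 301.3 ± 110 CPM in S1 and 612.1 ± 297 CPM in S2. E2f7 stayed at 55.5 ± 18.8 CPM in S0-Medium and 77.6 ± 6.62 CPM in S1, then stood at 149.3 ± 73.9 CPM in S2 and 478.4 ± 335 CPM in S3. The spread of both genes widened in S2 and S3, where replicate 3 was the highest library.

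Among the pocket proteins, Rb1 and Rbl1 rose and Rbl2 did not pass the test. Rb1 (ENSMUSG00000022105, chr14:73192858-73325951), the retinoblastoma gene itself, measured 85.5, 72.3 and 163 CPM in S0-Low, and 631, 611 and 1165 CPM in S3. Replicate 3 was the highest Rb1 library in each of the 5 erythroid populations, and its S2 value of 782 CPM exceeded S3 replicates 1 and 2. Rb1 rose by 2.91 on the log2 scale (SE 0.56, edgeR adjusted p = 0.00107), and by 2.00 with library totals (edgeR adjusted p = 0.00692). Rbl1 (ENSMUSG00000027641, chr2:157145893-157204534), which encodes a pocket protein that pairs with E2f4 in dividing cells, measured 134, 140 and 198 CPM in S0-Low and 446, 405 and 618 CPM in S3. The S3 values of Rbl1 were all above those of S0-Low, by a smaller margin than for Rb1. Rbl1 rose by 1.63 (SE 0.35, edgeR adjusted p = 0.00248), but its change was 0.76 with an edgeR adjusted p of 0.0792 under library totals.

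Rbl2 (ENSMUSG00000031666, chr8:91070057-91123844), which encodes the pocket protein best known from resting cells, measured 75.6, 81.5 and 124 CPM in S0-Low and 102, 56.3 and 86.0 CPM in S3. These values overlapped, and the log2 fold change was -0.20 (SE 0.37, edgeR adjusted p = 0.693). With library totals it was -1.05 (edgeR adjusted p = 0.0457). As a share of the pocket protein signal per kb, Rbl2 made up 25.7% ± 1.26 in S0-Low, 17.2% ± 0.440 in S1, 11.0% ± 3.80 in S2 and 5.96% ± 2.12 in S3 (SD, n = 3). Rb1 went the other way, from 30.0% ± 4.58 in S0-Low to 58.7% ± 4.40 in S3. In Lin+ the 3 genes took nearly equal parts, with 34.6% ± 2.74 for Rb1, 33.0% ± 2.34 for Rbl1 and 32.4% ± 0.913 for Rbl2. Of the annotated 31-base stretches of Rbl2, 7.39% also occur in protein-coding transcripts of other genes. Rbl2 also overlaps Aktip on the opposite strand, so some of its counts could belong to that neighbour. For the other members at most 1.68% of stretches were shared with protein-coding transcripts, and sharing with non-coding transcripts was not searched. Rb1 is overlapped by Gm17233 and Mir687 on its own strand and by Lpar6 and Rcbtb2 on the other, and E2f3, E2f8 and Rbl1 by Gm11365, Gm2788 and Gm14277 on the opposite strand, so their counts carry the same limit.

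**Figure D3:**
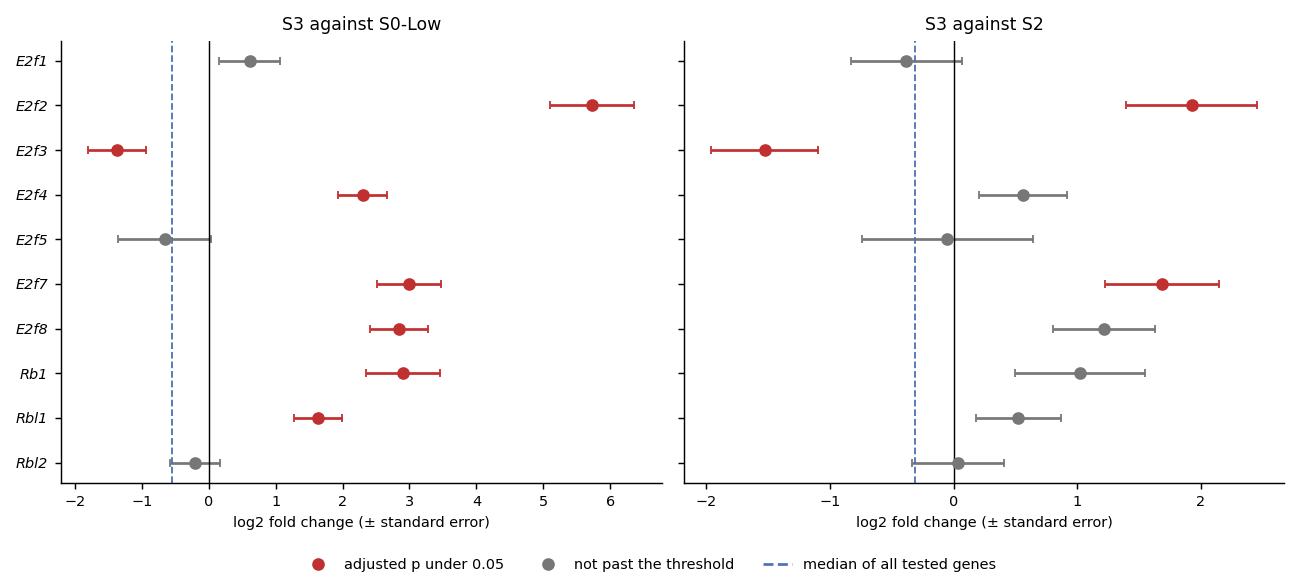
Log2 fold change of each member with its standard error for S3 against S0-Low (left) and S3 against S2 (right), from edgeR over 15 erythroid libraries. Red points passed the adjusted p threshold of 0.05, 7 on the left and 3 on the right, and the dashed line is the median of all tested genes (-0.54 and -0.31).

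Ratios between members were then tested within libraries, since they are free of the scaling. For 6 pairs fixed in the design, log2 ratios of counts plus 0.5 were compared between S3 and S0-Low by a two-sided exact permutation test, which cannot go below p = 0.1 with 3 libraries against 3, so no ratio could pass the threshold. The ratio of E2f2 to E2f1 was -0.48, -0.19 and 1.09 in S0-Low and 4.75, 4.86 and 5.44 in S3. The groups did not overlap, and the ratio was 4.88 higher in S3 on the log2 scale (exact p = 0.1, adjusted over 6 ratios 0.12). The ratio of E2f4 to E2f5 was 3.63 higher, that of E2f4 to E2f1 1.63 higher and that of Rb1 to Rbl1 1.30 higher in S3, each with the same p and no overlap. That of E2f4 to E2f5 was 2.94 higher without S3 replicate 1, in which E2f5 was lowest, and 4.33 higher without S3 replicate 2, in which E2f5 was highest. The ratio of Rbl2 to Rbl1 was lower in S3, at -2.60 ± 0.42 against -0.76 ± 0.08 in S0-Low (SD, n = 3), again without overlap (exact p = 0.1). The ratio of E2f8 to E2f7 was 1.70 ± 0.41 in S0-Low and 1.66 ± 0.23 in S3, and the libraries overlapped (exact p = 1).

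**Figure D4:**
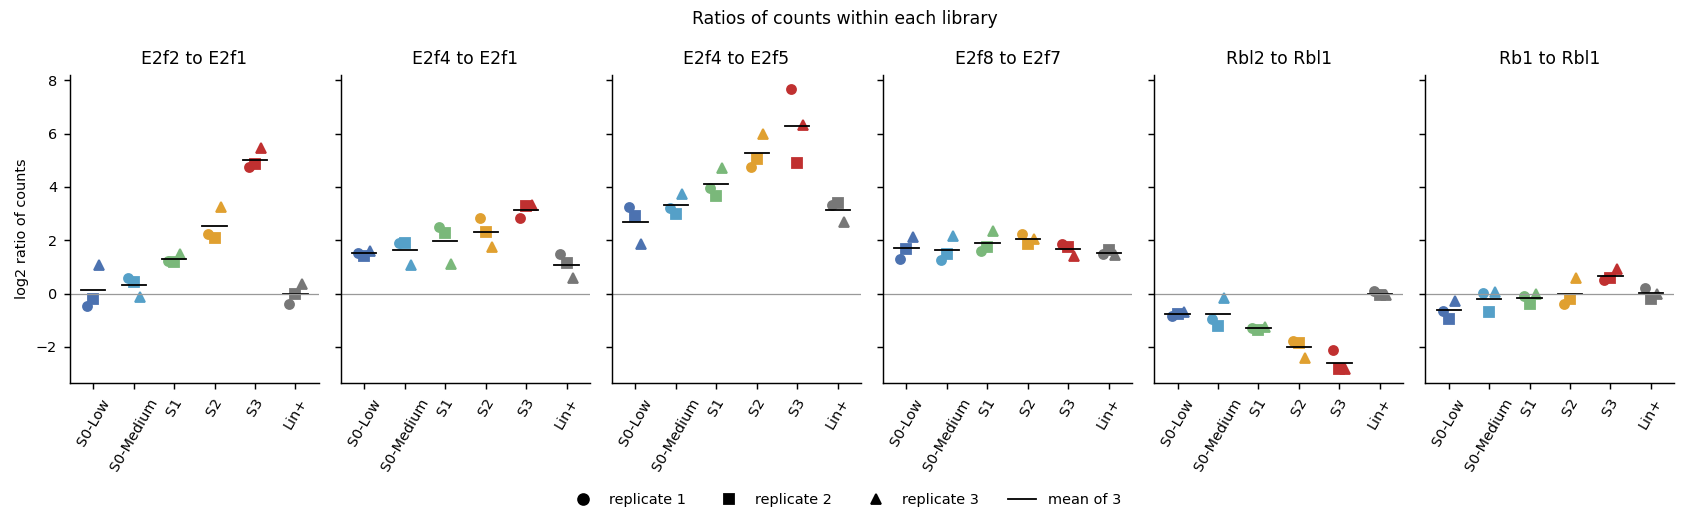
Log2 ratio of counts for 6 pairs of members within each of 18 libraries, with 1 point per library and a bar at the mean of 3. The ratio of E2f2 to E2f1 climbs from a mean of 0.14 in S0-Low to 5.02 in S3 and that of Rbl2 to Rbl1 descends from -0.76 to -2.60, whereas E2f8 to E2f7 stays between 1.24 and 2.35 in all erythroid libraries.

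Across the 5 erythroid populations jointly, 6 members varied by edgeR's test of all populations (24.6% of all genes did), namely E2f2, E2f4, E2f7, E2f8, Rb1 and Rbl1. E2f3 had an adjusted p of 0.0537, and the count was 7 with the replicate block, with RLE size factors, with no filter, with the 10-count filter, with all 18 libraries, with DESeq2 and without replicate 1 or 3 of S0-Low or S0-Medium. Single steps of the series gave few calls. No member was called between S0-Medium and S0-Low, between S1 and S0-Medium or between S2 and S1, where 0% of all genes were called by edgeR. At an unadjusted p under 0.05, 0, 2 and 2 members were higher in these steps, beside 1.78%, 1.68% and 1.00% of all genes, and none was lower, beside 1.47%, 5.18% and 3.03%. DESeq2 also called no member in any of these steps, beside 28, 33 and 6 of 16555 genes higher and 19, 368 and 142 lower. The 2 members were E2f2 and E2f8 in each of the last 2 of these steps.

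The last step, from S2 to S3, gave 2 members that rose (3.26% of all genes were called higher) and 1 that fell (6.09% lower). E2f2 rose by 1.93 on the log2 scale (SE 0.53, edgeR adjusted p = 0.0326), and E2f7 by 1.69 (SE 0.46, edgeR adjusted p = 0.0309). E2f3 fell by 1.53 (SE 0.43, edgeR adjusted p = 0.0384). E2f8 differed by 1.22 (SE 0.41, edgeR adjusted p = 0.0744), Rb1 by 1.02 (SE 0.52, edgeR adjusted p = 0.225). Deviations of same-numbered libraries of S2 and S3 from their population means correlated weakly (r = 0.111 to 0.214). With the replicate number as a block E2f8 (edgeR adjusted p = 0.00507) and Rb1 (edgeR adjusted p = 0.00759) also passed, giving 4 members higher and 1 lower. Over all 16555 genes the calls went from 540 higher and 1008 lower to 1208 and 1866. With library totals no member was called higher, the changes of E2f2 and E2f7 being 1.43 and 1.12 (edgeR adjusted p = 0.0579 and 0.0731), and the split of all genes went from 540 higher and 1008 lower to 288 and 2264. No member passed in either direction when only the 6 libraries compared entered the fit, where 75 genes were called higher and 23 lower of 11911. Leaving out S2 replicate 1, S2 replicate 2 or S3 replicate 3 left 0 members higher. Over all genes these settings called 165, 179 and 265 higher and 533, 513 and 616 lower, of 17562 to 17670 tested. Leaving out S2 replicate 3 gave 4 members higher, beside 850 higher and 1525 lower of 17700 genes tested in that setting. In that library E2f2 and Rb1 were far above the other S2 libraries. Without S2 replicate 3 the log2 fold change of E2f2 was 2.87 and that of Rb1 1.97, and without S3 replicate 3 that of E2f7 was 0.92. The call of E2f3 as lower was lost without any one of S2 replicates 1 and 2 and S3 replicates 1, 2 and 3. Its log2 fold change was -1.75 to -1.36 with 1 library left out.

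From S1 to S3, 6 members rose (7.21% of all genes were higher) and 1 fell (12.1% lower), with E2f2, E2f4, E2f7, E2f8, Rb1 and Rbl1 higher and E2f3 lower. With library totals 3 members were called higher and 1 lower, and the split of all genes went from 1193 higher and 1997 lower to 586 and 3900. The comparisons of S3 with S0-Low, S1 and S2 share the S3 libraries. Without S1 replicate 1, S1 replicate 2 or S3 replicate 3, 3 members were called higher, and without any one of these libraries or S3 replicate 2 none was called lower. Over all genes the calls without S1 replicates 1 and 2, S3 replicate 3 and S3 replicate 2 were 673, 591, 769 and 1072 higher. In the same order 1151, 1131, 1270 and 2304 were lower, of 17501 to 17657 genes tested.

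The order of the members by level was compared per kb of longest transcript. In S0-Low, E2f4 led with a mean of 68.8 ± 34.0 CPM per kb, followed by E2f8 at 53.7 ± 12.6 and E2f3 at 38.8 ± 17.1, and E2f2 was last of the 10 at 10.1 ± 1.24 (SD, n = 3). The libraries of neighbours in this order overlapped for 9 of 9 pairs. In S3 the order ran from E2f2 at 537.6 ± 209 CPM per kb through E2f8 at 384.1 ± 203, E2f4 at 339.5 ± 91.8, Rb1 at 172.4 ± 67.5, Rbl1 at 100.7 ± 23.2 and E2f7 at 87.4 ± 61.1 to E2f1 at 27.4 ± 3.22, Rbl2 at 16.6 ± 4.74, E2f3 at 15.1 ± 4.02 and E2f5 at 7.02 ± 6.33. Neighbours overlapped for 6 of 9 pairs, and the breaks lay between Rb1 and Rbl1, between E2f7 and E2f1 and between E2f1 and Rbl2. Whether introns were counted is not given in the sources used here, so a level per kb of transcript is an approximation.

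No member was called between Lin+ cells, which had the highest sums of neutrophil and monocyte genes, and S0-Low (0.496% of all 17755 genes were called higher and 0.22% lower by edgeR over 18 libraries). None had an unadjusted p under 0.05 (9.85% of all genes did). DESeq2 called no member, beside 473 genes higher and 129 lower of 17755. The log2 fold changes ran from -0.68 to 0.50. The Lin+ libraries overlapped those of S0-Low for 9 members, and E2f5 was lower in every Lin+ library, where no overlap in either direction was found for 22.6% of all genes.

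Against S3, 6 members were lower in Lin+ and none was called higher by edgeR, where 14.1% of all genes were lower and 28.2% higher. At an unadjusted p under 0.05 no member was higher (33.9% of all genes were), and DESeq2 called none higher, beside 5893 of 17755 genes. E2f2 measured 43.8, 51.1 and 52.0 CPM in Lin+, every value far under the lowest S3 value, and was lower by a log2 fold change of -5.70 (SE 0.59, edgeR adjusted p = 1.46e-06). E2f8, E2f7, E2f4, Rb1 and Rbl1 followed with log2 fold changes of -3.03, -2.98, -2.60, -2.58 and -1.87. The change of E2f7 was -2.23 without S3 replicate 3, and with library totals those of the 6 genes ran from -4.86 for E2f2 to -1.04 for Rbl1, each past the threshold. E2f3 and Rbl2 were higher in every Lin+ library than in every S3 library, with log2 fold changes of 0.73 (edgeR adjusted p = 0.155) and 0.70 (edgeR adjusted p = 0.113). Each of these 2 genes was called higher with library totals, where the median of all genes was 1.47 instead of 0.69 and the split of all genes 7126 higher and 1338 lower instead of 5005 and 2496.

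The genes around the members were counted from lists chosen with earlier results of these data known. A list of 11 genes held E2f6, the dimerization partners Tfdp1 and Tfdp2, the genes Lin9, Lin37, Lin52, Lin54 and Rbbp4 for subunits of the MuvB complex, which pairs with pocket proteins or with B-Myb, and the transcription factor genes Mybl1, Mybl2 (B-Myb) and Foxm1. Of these, 6 rose and 0 fell from S0-Low to S3, with a median log2 fold change of 1.49, where 13.4% of all genes were called higher and 22.4% lower and their median was -0.54. With library totals 4 of the 11 were called higher and 2 lower. The genes that rose were Tfdp2, Lin52 and Lin54 among the partners and subunits, and Mybl1, Mybl2 and Foxm1, which are neither. Tfdp2, which encodes a dimerization partner of E2Fs, measured 85.2, 72.5 and 170 CPM in S0-Low and 984, 1427 and 2614 CPM in S3. Every S3 library was above every S0-Low library, and Tfdp2 rose by 3.94 on the log2 scale (SE 0.73, edgeR adjusted p = 0.000888). Mybl1, a Myb family member, rose by 3.80 (edgeR adjusted p = 0.0213) and Lin54, the DNA-binding subunit of MuvB, by 2.11 (edgeR adjusted p = 0.000229). Mybl1 measured 2.74, 3.37 and 0 CPM in S0-Low and 36.1, 14.4 and 35.5 CPM in S3. Tfdp1, the other partner, was at 226.5 CPM in S0-Low and 213.8 CPM in S3 on average, a log2 fold change of -0.08 (edgeR adjusted p = 0.861); it stands, as Lin52, Mybl2 and Foxm1 do, outside the rule for named genes and was chosen after its values were seen.

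Of 23 tested E2F target genes among 24 listed, 12 rose and 0 fell, beside the same 13.4% higher and 22.4% lower among all genes, and the median log2 fold change was 0.95, beside -0.54 for all genes. Rrm2, a subunit of ribonucleotide reductase, rose by 3.39 (SE 0.43, edgeR adjusted p = 4.41e-05), Ccna2, cyclin A2, by 3.18 (SE 0.39, edgeR adjusted p = 3.28e-05) and Tyms, thymidylate synthase, by 2.16 (SE 0.36, edgeR adjusted p = 0.000377). Ccna2 stood at 166.1 ± 29.5 CPM in S0-Low and 1506 ± 676 CPM in S3 (SD, n = 3). None of the 6 genes of the MCM helicase, Mcm2 to Mcm7, passed the test, with log2 fold changes of 0.04 to 0.66; they too were chosen after their values were seen. With library totals, 7 of the 23 were called higher and 2 lower.

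The list of G1 cyclins, their kinases and the kinase inhibitors split, with 5 of 12 tested genes higher and 4 lower, beside 13.4% and 22.4% of all genes, and a median log2 fold change of 0.84, beside -0.54. With library totals the split was 3 higher and 6 lower. Cdkn2c, an inhibitor of Cdk4 and Cdk6, measured 0.207, 1.12 and 0 CPM in S0-Low and 157, 196 and 333 CPM in S3. It rose by 8.84 on the log2 scale (SE 1.25, edgeR adjusted p = 0.000103). S0-Low replicate 3 had no count of Cdkn2c, and a floor of 3 counts was 0.085 CPM in S0-Low replicate 1 and 0.089 CPM in replicate 2. The E cyclins Ccne2 and Ccne1 rose by 3.02 (edgeR adjusted p = 0.000219) and 2.50 (edgeR adjusted p = 0.00164). Cdk6, the kinase of D cyclins, measured 809, 547 and 736 CPM in S0-Low and 1.89, 9.74 and 0 CPM in S3. It fell by 7.47 (SE 1.38, edgeR adjusted p = 0.000826), and Ccnd2, cyclin D2, fell by 4.71 (SE 1.66, edgeR adjusted p = 0.0379). Ccnd2 measured 256, 257 and 63.5 CPM in S0-Low and 7.04, 15.0 and 0 CPM in S3. Ccnd1, cyclin D1, had 0 counts in each S2 and S3 library and in S0-Low replicate 3, and stood at 59.2 and 54.2 CPM in S0-Low replicates 1 and 2. It was called lower in S3 (edgeR adjusted p = 0.00519), and no fold is given against libraries at 0. Cdk4 was the last of the 4 that fell, and Cdkn1a and Ccnd3 were the others that rose.

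**Figure D5:**
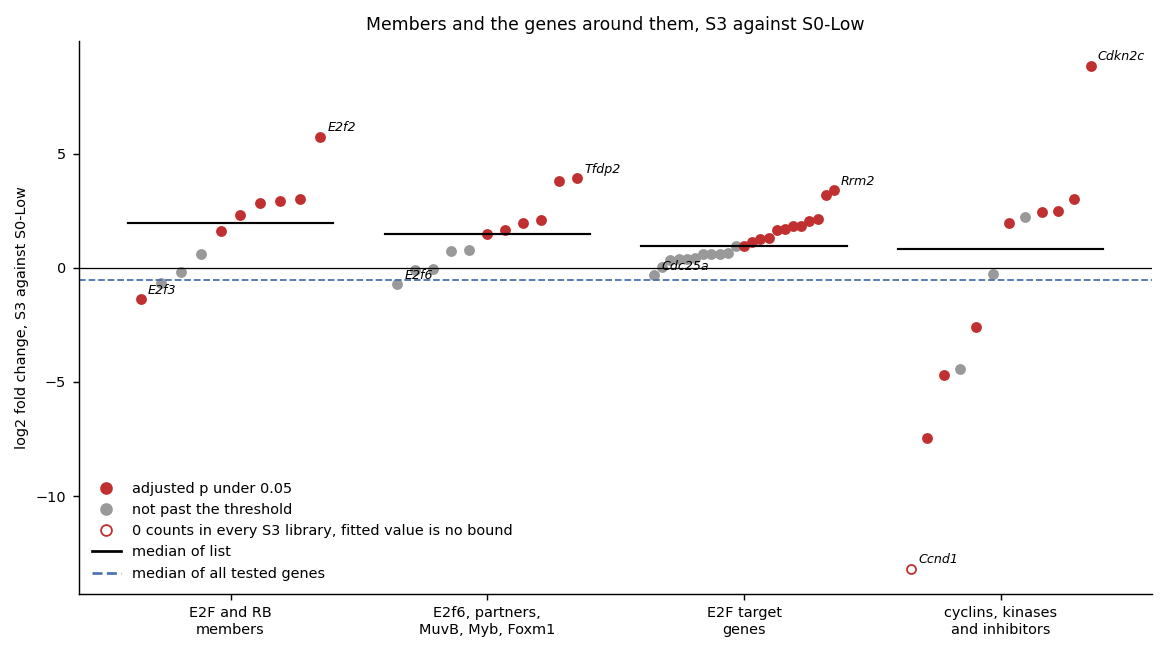
Log2 fold change of S3 against S0-Low for the 10 members and for 3 lists of related genes, with 1 point per tested gene in rising order, red where the adjusted p was under 0.05, a black bar at the list's median and a dashed line at the median of all tested genes (-0.54). The open point is Ccnd1, which had 0 counts in every S3 library, so its fitted value depends on the prior count and is no bound.

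Over the 15 erythroid libraries, Pearson's r of log2 CPM between E2f2, E2f7, E2f8, Rb1 and Rbl1 was 0.891 to 0.976 for the 10 pairs, and E2f4 had 0.718 to 0.879 with these 5. For E2f3 with these 5, r was -0.692 to -0.597, and for Rbl2 -0.145 to 0.179. The points share libraries, depth and the order of the populations, so these values are descriptions. Among 10202 genes compared, the genes most like E2f2 were Hs6st1 (r = 0.994), Slc25a37, the mitochondrial iron importer of erythroblasts (r = 0.991), and Dusp1 (r = 0.990). Those most like E2f7 were Incenp, Kif23 and Tpx2 (r = 0.980, 0.977 and 0.971). For E2f8 they were Ska1, Ccnf and Gmeb2 (r = 0.989, 0.979 and 0.979), and for Rb1 they were Shb, 1110018G07Rik and Btrc (r = 0.988, 0.981 and 0.980). Rbl1 was closest to Dcaf10, 4632419I22Rik and Mtfr1 (r = 0.984, 0.981 and 0.980), and E2f4 to Pabpc4, Cars and C2cd2l (r = 0.976, 0.976 and 0.974).

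Windows at annotated gene starts were searched for the letters of an E2F site, since E2Fs are known to bind promoters of their own family. RefSeq windows of 250 bases before and 50 after a gene start (GRCm38.p6) were at hand for 7 members, as 9 windows; E2f4, E2f5 and Rb1 had no entry. Of these windows 5 lay at the outermost annotated start, those of E2f2, E2f3, E2f7, Rbl1 and Rbl2, and the others at inner starts of E2f1, E2f2, E2f3 and E2f8. The bases before the E2f1 start were themselves transcribed sequence, since 22 of 22 stretches of 31 bases taken from them occur in annotated transcripts, and the outermost start of E2f1 was not searched. The letters TTTCCCGC, TTTCGCGC, TTTGCCGC or TTTGGCGC on either strand occurred in 2.26% of 32851 windows of all genes and in 4 of the 9 member windows, those at the outermost starts of E2f2, E2f3, E2f7 and Rbl1. The letters TTTGAA, the core of the cell cycle homology region to which MuvB binds, occurred in 17.9% of all windows and in 4 of the 9, and CCAAT in 37.4% and in 5 of the 9. Matches are a description of letters, not of binding. Windows with an E2F match belonged to 3 members that rose and to E2f3, which fell.

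The bases before the start of these genes are shown in the direction of transcription, with the E2F letters in capitals, to let the sites of 2 rising members be read beside that of the falling one. In E2f3 (chr13:29986064-29986313, minus strand) the site is on the reverse strand with its first base at -11, close to the start, and in Rbl1 (chr2:157204535-157204784, minus strand) it is on the forward strand at -18. In E2f7 (chr10:110745189-110745438, plus strand) the match is on the reverse strand at -198, farther from the start. In E2f2 it lies within the transcript, on the forward strand at 40 counted from the first base, and only the 20 bases around it (chr4:136172304-136172323, plus strand) are shown.
E2f3: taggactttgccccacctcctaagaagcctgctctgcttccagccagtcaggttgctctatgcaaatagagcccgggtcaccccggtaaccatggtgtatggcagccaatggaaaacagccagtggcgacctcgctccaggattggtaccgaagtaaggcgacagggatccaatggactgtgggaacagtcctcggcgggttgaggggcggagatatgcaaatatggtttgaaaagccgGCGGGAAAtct
Rbl1: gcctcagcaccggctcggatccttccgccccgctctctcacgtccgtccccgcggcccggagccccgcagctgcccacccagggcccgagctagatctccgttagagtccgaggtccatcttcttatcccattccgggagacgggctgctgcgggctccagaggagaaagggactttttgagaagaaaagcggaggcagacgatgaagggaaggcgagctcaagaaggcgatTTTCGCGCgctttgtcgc
E2f7: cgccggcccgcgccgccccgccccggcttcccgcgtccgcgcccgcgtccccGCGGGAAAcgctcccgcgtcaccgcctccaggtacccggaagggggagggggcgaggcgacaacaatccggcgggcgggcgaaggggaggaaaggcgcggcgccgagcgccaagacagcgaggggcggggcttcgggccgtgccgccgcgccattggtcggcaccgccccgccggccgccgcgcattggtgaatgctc
E2f2: ggcatatagTTTGGCGCtaa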

How the data were processed

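The 18 mouse libraries hold nascent RNA labelled with 4sU. The authors made stranded libraries by PCR without molecular identifiers and deposited raw read counts, 1 whole number per gene and library. The submitters' processing notes name kallisto 0.43.0 and GRCm38; the transcript set and the treatment of introns are not given in the sources used here. Groups and replicate numbers come from the labels. Members and lists were chosen with earlier results of these data known.

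The 15 erythroid libraries (all 18 for Lin+) entered 1 edgeR 4.0.16 model in R 4.3.3, with TMM, filterByExpr, population as the only factor and two-sided quasi-likelihood tests. Printed CPM were TMM-scaled over 18 libraries, and SE is the fold change divided by the root of F. Ratios used Python 3.11.15 with numpy 2.4.6, pandas 2.3.3 and scipy 1.17.1, and figures matplotlib 3.10.9. Scripts were tested on simulated data. A floor of 3 counts was 0.317 CPM in the shallowest library, which covers counting error only.

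Named genes were all 10 members and, from each list, at most the 3 largest rises and 3 largest falls past the threshold in S3 against S0-Low whose mean in the higher of both populations was 100 normalized counts or more. For members that varied across populations, the 3 genes with the highest r were named. Gene coordinates and promoters are RefSeq's (GRCm38.p6), and lengths are those of GENCODE M1 transcripts. Cdkn2d and Adgre1 had no match in the names table.

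Same-numbered libraries were checked for pairing by the correlation of their deviations from population means. The number came from the labels, which do not say what it stands for. Every pair exceeded 0.1 for S3 against S1 (0.132 to 0.200), S3 against S2 (0.111 to 0.214) and the 3 earlier steps (0.240 to 0.408), but not for S3 against S0-Low (0.0352 to 0.0956), Lin+ against S0-Low (0.0835 to 0.138) or Lin+ against S3 (0.0755 to 0.104). Chi-square per degree of freedom between replicates was 89.4 or more, so no pair agreed within sampling noise.

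Alternatives were DESeq2 1.42.0, RLE factors, library totals, no filter, at least 10 counts in every compared library, the replicate block, only the libraries compared, all 18 libraries, pseudocounts of 0.1 and 5 for ratios, and each replicate left out. Leaving out every replicate 3 library was added after seeing the data.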

Additional observations from a re-analysis of the deposited data

How the results depend on the processing

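From S0-Low to S3 the number of members called higher was 5 or 6 under all 15 alternatives, and from S3 to Lin+ 6 members were lower under all 14. The number called lower from S0-Low to S3 was 2 with library totals and 0 to 1 with 1 library left out. In S3 against S1 the number higher was 3 with library totals and 3 to 5 with 1 library left out, and the number lower 0 to 1. With 1 library left out, 591 to 1168 genes were higher and 1131 to 2304 lower. In S3 against S2 the number higher was 0 with library totals or only the libraries compared, where 288 and 75 genes were higher and 2264 and 23 lower. It was 5 without all replicate 3 libraries (where 1264 of 17255 genes were higher and 1995 lower). With 1 library left out it was 0 to 4, beside 165 to 850 genes higher and 513 to 1595 lower. The number lower was 0 with only the libraries compared and 0 to 1 with 1 left out. In Lin+ against S3, 2 members were higher with library totals, the replicate block or the 10-count filter and 1 with only the libraries compared. In that order 7126 of 17755, 5693 of 17755, 1724 of 8173 and 4322 of 15043 genes were higher, and 1338, 2845, 1705 and 1881 lower. Without a filter 1 member was called higher in each of S1 against S0-Medium and S2 against S1. Of 28888 genes, 82 were higher and 245 lower in the first of these, and 17 higher and 60 lower in the second. The cause of these changes was not tested.

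The replicate block gave 4 members higher in S3 against S2, and 7 in place of 6 in the test across the 5 populations, where the calls over all genes went from 540 higher and 1008 lower to 1208 and 1866 and from 4077 to 5479, and changed no other count of members where the numbers pair the samples. For S3 against S0-Low and the Lin+ comparisons, where samples share only a number, it moved the calls of all genes in S3 against S0-Low from 2220 higher and 3712 lower to 2640 and 4374.

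Of the lists from S0-Low to S3, that of E2f6, E2F partners, MuvB subunits, Myb genes and Foxm1 had 1 gene lower with RLE factors, DESeq2, the block or the 10-count filter, 2 with library totals and 0 to 1 with 1 library left out. Cyclins and kinases had 3 higher with library totals, 3 to 5 with 1 library left out, and 1 lower with the 10-count filter, which tested 7 of them. E2F targets had 7 higher and 2 lower with library totals. E2f1 reversed to -0.21 with library totals, and Rbl2 to 0.0052 without S3 replicate 2, 0.00018 without S0-Low replicate 3 (-0.41 to 0.0052 with 1 library left out) and 0.013 without all replicate 3 libraries. The difference between S3 and S0-Low in the log2 ratio of E2f8 to E2f7, -0.0342, was 0.174 without S0-Low replicate 3, 0.0958 without S3 replicate 3, 0.304 without all replicate 3 libraries, and -0.237 to 0.174 with 1 library left out. Where 1 population kept 2 libraries, the fit shared its spread with the others. Common dispersion corresponded to a coefficient of variation of 0.795, which limits what small changes could be called.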
